A study of Mus musculus with 8 samples.

Results

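The CpGs described here lie in the imprinted domains of *H19* and *Igf2* on mouse chromosome 7 and of *Dlk1*, *Meg3* and *Rtl1* on chromosome 12. They were taken by position, as every listed CpG in the 5 genes, in 5 kb on either side of each gene and in the stretches between *H19* and *Igf2* and between *Dlk1* and *Meg3* (mm9, GENCODE vM1). This gave 245 of the 757812 CpGs listed for the series, 103 in the H19-Igf2 locus and 142 in the Dlk1-Meg3-Rtl1 locus. The data are oxRRBS, reduced representation bisulfite sequencing of MspI fragments, of neural precursor cells (NPCs) derived from mouse embryonic stem (ES) cells by way of retinoic acid. Bisulfite alone (BS) reads 5-methylcytosine (5mC) and 5-hydroxymethylcytosine (5hmC) together as methylated, and prior oxidation (oxBS) leaves 5mC alone.

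All cells came from the A2lox.cre line, which derives from E14, a male ES cell line of the inbred strain 129P2/OlaHsd, and carried an inducible shRNA cassette. Control NPCs had a non-targeting (scrambled) shRNA, called shScr here, and knockdown NPCs had an shRNA against *Tet3*, which encodes a dioxygenase that oxidises 5mC to 5hmC. Both had received doxycycline at 2 µg/ml for 5 days. Each shRNA had 2 replicates, and the DNA of each was divided between a BS and an oxBS library, 8 libraries in all. Nothing in the labels says whether the replicates are separate cultures or differentiations. The permutation p values therefore compare these libraries only, and the q values of single CpGs cover only counting error in pooled calls. Because the strain is inbred, maternal and paternal alleles could not be told apart, and each level is a mean over both alleles and over all cells in the sample.

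Both domains are imprinted, that is, expressed from one parental copy. In the textbook picture each has a control region that gains methylation in the male germ line. On chromosome 7 this region lies upstream of *H19*, a non-coding RNA gene. Where it is unmethylated, on the maternal copy, it binds the insulator protein CTCF and *H19* is expressed, and on the methylated paternal copy *Igf2*, which encodes a fetal growth factor, is expressed instead. On chromosome 12 the control region lies between *Dlk1*, which encodes a transmembrane protein related to Notch ligands and active in neural stem cells, and *Meg3* (also called *Gtl2*), a non-coding RNA gene. *Dlk1* and the retrotransposon-derived *Rtl1* are expressed from the paternal copy, and *Meg3* and the microRNAs encoded antisense to *Rtl1* from the maternal copy.

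The listed CpGs did not reach either germline control region well enough to check the parental label. Between the last CpG of *H19* and the first listed CpG of the stretch towards *Igf2* lay 24006 bp that held 289 CpGs and 25 CCGG sites (the MspI recognition sequence) but no listed CpG. This gap takes in the 5′ end of *H19* and the region upstream of it. GNGGNGGCA, a 9-letter part of the CTCF motif, was found 6 times in either orientation within 5 kb upstream of *H19*, at 1296 to 3892 bp from its start, and no listed CpG lay within 150 bp of any of them. Over both chromosomes the same letters occurred in 13.4% of the 300-base windows around listed CpGs of chromosome 7 and in 14% of those of chromosome 12, but in the windows of only 1 of 103 and 1 of 142 CpGs of the 2 loci. On chromosome 12, gaps of 19.6 kb and 15.2 kb without listed CpGs flanked 3 CpGs between *Dlk1* and *Meg3* whose coverage was 5 to 21 reads, with fewer than 10 in at least 1 oxBS library at each. No level is therefore given for these regions, and "paternally methylated" is a name for the loci, not a measurement made here.

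The sequences below carry the patterns that follow. They are the forward strand of mm9 in lower case with the listed CpGs in capitals. Most were chosen because their level separates them from their neighbours or because their replicates do. The *Meg3* exon and intron stretch and the *Rtl1* stretch were picked for their lower levels after *Tet3* knockdown. The decreases given for these stretches below were therefore known when they were chosen.
H19, exon near the 3′ end (chr7:149761690-149761779): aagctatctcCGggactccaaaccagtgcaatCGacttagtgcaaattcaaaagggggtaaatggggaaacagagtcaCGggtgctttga
Igf2, CpG-dense unmethylated stretch (chr7:149845405-149845526): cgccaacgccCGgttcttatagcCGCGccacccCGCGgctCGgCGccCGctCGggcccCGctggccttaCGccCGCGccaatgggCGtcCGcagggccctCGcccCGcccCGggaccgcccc
Igf2, intermediate stretch in an intron (chr7:149850262-149850303): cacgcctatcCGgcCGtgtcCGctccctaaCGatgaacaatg
Dlk1, upstream stretch with divergent control replicates (chr12:110688151-110688313): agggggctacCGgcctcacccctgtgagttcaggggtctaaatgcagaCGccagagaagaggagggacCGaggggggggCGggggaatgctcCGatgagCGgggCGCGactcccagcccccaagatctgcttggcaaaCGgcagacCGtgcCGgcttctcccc
Meg3, first exon (chr12:110779207-110779291): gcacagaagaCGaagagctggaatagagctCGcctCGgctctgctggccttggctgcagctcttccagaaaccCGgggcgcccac
Meg3, exon and intron stretch with most of the lower CpGs (chr12:110787876-110788047): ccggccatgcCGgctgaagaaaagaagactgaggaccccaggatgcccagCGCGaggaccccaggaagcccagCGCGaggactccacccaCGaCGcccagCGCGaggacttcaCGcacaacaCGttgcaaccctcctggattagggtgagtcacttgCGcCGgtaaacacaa
Rtl1, coding stretch with a steep decrease (chr12:110828541-110828632): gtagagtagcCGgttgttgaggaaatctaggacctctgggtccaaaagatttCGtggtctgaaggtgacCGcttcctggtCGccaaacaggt

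Total calls per library ranged from 42516767 to 61865967, with a median coverage of 43 to 54 per CpG. A CpG entered a comparison when its coverage was 10 or more in all 4 libraries compared. The ES-cell promoters set aside as markers (−1 kb to +0.5 kb) had oxBS levels in shScr of 42.3% and 44.5% at *Pou5f1* and 59.7% and 65.9% at *Tcl1*, against 39.4% and 48.0%, and 50.2% and 45.2%, in shTet3. *Esrrb*, of the same list, was little methylated, at 11.2% and 7.22% in shScr against 3.99% and 5.46% in shTet3, and *Zfp42* was at 29.7% and 57.6% against 38.5% and 32.1%. The promoters of the neural genes *Nes* and *Tubb3* were between 2.54% and 6.57% in all 4 oxBS libraries, and *Pax6* was between 29.6% and 47.5%. Methylation gives no expression level, *Nanog* had no CpG tested and *Sox1* could not be matched, so the NPC label was not settled by these values.

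The Dlk1-Meg3-Rtl1 locus was the more methylated of the 2 at its listed CpGs, and its mean level was lower by more points after *Tet3* knockdown, a difference between loci that was not tested. In oxBS libraries the mean level over 81 CpGs of H19-Igf2 was 25.1% and 24.4% in shScr, against 21.1% and 20.6% in shTet3. Over 133 CpGs of Dlk1-Meg3-Rtl1 it was 64.3% and 65.7% in shScr against 52.4% and 50.0% in shTet3. At both loci the groups did not overlap. The mean difference was −3.91 percentage points for H19-Igf2 and −13.8 points for Dlk1-Meg3-Rtl1, and for each the two-sided exact permutation test gave p = 0.33, the smallest that 2 libraries against 2 can give. The mean over all 662455 CpGs tested was 27.2% and 32.3% in shScr against 22.7% and 22.9% in shTet3. The shScr means were further apart there than at either locus taken as a whole. Within Dlk1-Meg3-Rtl1 the gaps between the shScr replicates ran in opposite directions. Replicates 1 and 2 were at 70.04% and 38.7% upstream of *Dlk1* but at 64.9% and 85.5% between *Dlk1* and *Meg3*. The close locus means therefore do not show that the shScr replicates were alike along the locus.

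**Figure D1:**
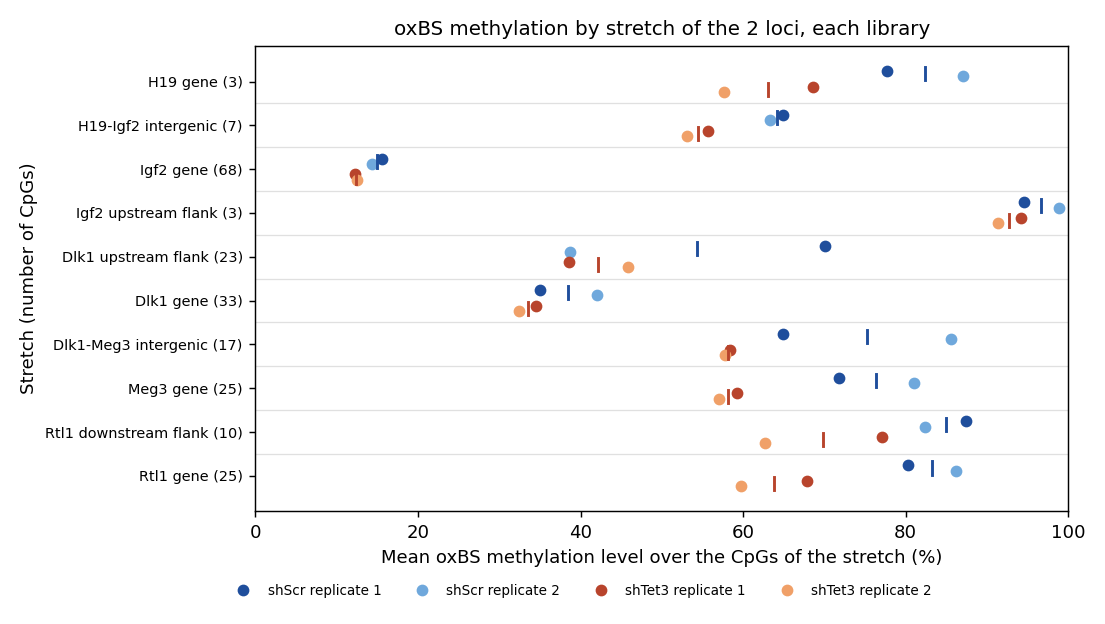
Mean oxBS methylation level (%, horizontal axis) of each stretch of the 2 loci (vertical axis, with the number of CpGs), 1 point per library and a vertical bar at the mean of the 2 replicates. The shTet3 points (red and orange) lie to the left of both shScr points (blue) in every stretch except upstream of *Dlk1*, where shScr replicate 2 at 38.7% sits beside shTet3 replicate 1 at 38.5% and shTet3 replicate 2 is at 45.8%.

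Single CpGs were compared by logistic regression of methylated and unmethylated calls on the shRNA, with a likelihood ratio test, a q value below 0.01 after Benjamini-Hochberg adjustment over all CpGs tested, and a pooled difference over 10 percentage points. "Lower" and "higher" are used below for CpGs that passed both. In oxBS libraries 43 of the 214 CpGs tested in the 2 loci were lower in shTet3, or 20.1%, against 13.9% of all CpGs, and 1 was higher, or 0.467%, against 0.0814%. The 35 lower CpGs of Dlk1-Meg3-Rtl1 were 26.3% of its 133, whereas the 8 of H19-Igf2 were 9.88% of its 81. The median difference was −13.4 points in the former, −0.527 points in the latter and −0.581 points over all CpGs. At 89 of the 214 CpGs, or 41.6%, the higher shTet3 library was still below the lower shScr library, as at 26.3% of all CpGs tested. This test takes no account of spread between replicates beyond counting. An F test that scales for such overdispersion called no CpG in any direction, in these loci or over the whole table. With 2 libraries against 2 it has so few residual degrees of freedom that q below 0.01 was practically out of reach. Its 0 is therefore not evidence about any CpG. At an unadjusted p under 0.05 it had 1 CpG of H19-Igf2 and 7 of Dlk1-Meg3-Rtl1 lower, and 12984 over the whole table.

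The share of lower CpGs followed the starting level, here as elsewhere. Among CpGs at 70 to 100% in shScr BS libraries, 31 of 81 in the loci were lower in oxBS, or 38.3%, against 37.9% of all such CpGs, and the median differences were −16.7 and −15.9 points. At 30 to 70%, 5 of 32 were lower, or 15.6%, against 31%, with median differences of −9.24 and −15.8 points. None of the 59 CpGs below 10% was lower or higher. A share near that of all CpGs at the same level does not set these loci apart. Of the 32 CpGs at 30 to 70%, 3 of 17 were lower in the run upstream of *Dlk1* described below (17.6%) and 2 of the other 15 (13.3%).

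**Figure D2:**
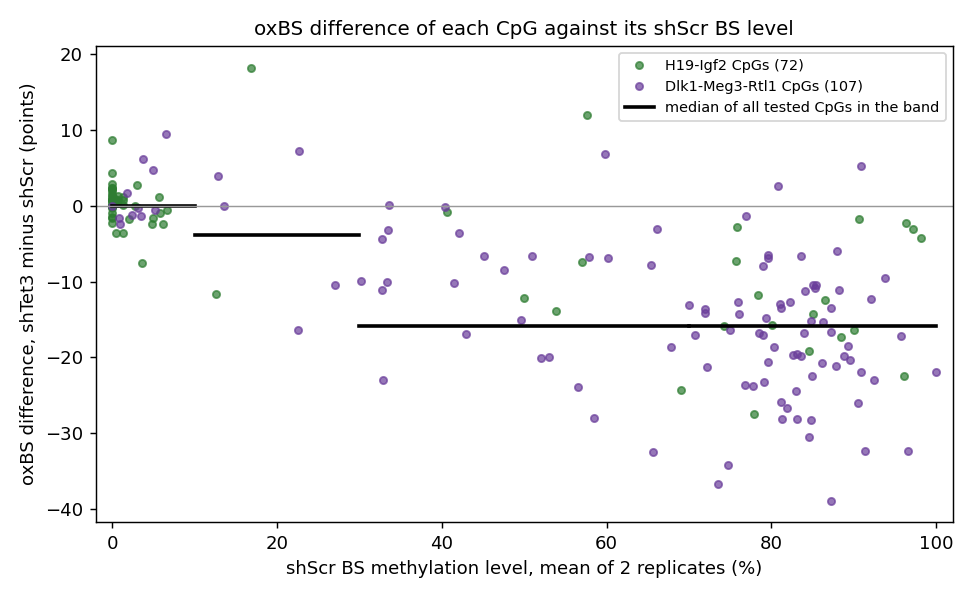
Difference in oxBS level (percentage points, shTet3 minus shScr, vertical axis) of each CpG against its level in shScr BS libraries (%, horizontal axis), with black bars at the median of all CpGs tested in the series in each of 4 bands of level. CpGs of H19-Igf2 (green) gather near 0% with differences near 0, and those of Dlk1-Meg3-Rtl1 (purple) gather above 70%, around the series median of −15.9 points.

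*H19* was represented by 3 CpGs in its 3′ exon, which were methylated in control NPCs and lower in shTet3. Their mean oxBS level was 77.7% and 87.0% in shScr against 68.6% and 57.7% in shTet3, and all 3 were lower. In BS libraries the mean was 77.3% and 85.4% in shScr against 61.1% and 66.0% in shTet3, with 2 of the 3 lower. The groups did not overlap in either kind of library. The CpG at position 149761768, the last in the printed sequence, was at 76.1% (95% Wilson interval 69.7 to 81.6, 197 calls) and 84.9% (78.0 to 89.9, 139 calls) in shScr oxBS libraries. In shTet3 it was at 61.4% (53.9 to 68.4, 171 calls) and 48.2% (40.2 to 56.4, 143 calls). The pooled oxBS difference was −24.4 points (q = 3.9e-09), and the BS difference of −8.66 points did not pass (q = 0.15).

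The stretch between *H19* and *Igf2* held 7 tested CpGs in 3 short runs. Its mean was 64.9% and 63.3% in shScr against 55.7% and 53.1% in shTet3, and 2 of the 7 were lower. The mean difference of −9.72 points depended on how the CpGs were weighted, since it was −20.8 points when weighted by reads and −26.1 points over the 2 CpGs with a coverage of 20 or more. A pair of these CpGs near position 149797431 was little methylated, at 14.3% and 8.33% in shScr against 30.5% and 9.01% in shTet3, and neither passed the test. The largest oxBS difference of the locus was at position 149823138, at 85.0% and 93.8% in shScr on 20 and 32 calls and 52.9% and 56.5% in shTet3 on 34 and 23 calls, a difference of −36.0 points (q = 2.5e-04). Coverage there was 8 and 9 in 2 BS libraries, so the CpG could not be tested in BS. Its BS levels were 62.5% and 75.0% in shScr against 74.2% and 33.3% in shTet3, so the groups overlapped.

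*Igf2* held most of the CpGs of its locus, and most were unmethylated. The run from position 149845099 to 149846864, which spans untranslated exons, introns and the overlapping *Igf2as* transcript, had 46 tested CpGs with mean oxBS levels of 2.02% and 1.71% in shScr against 1.38% and 1.89% in shTet3. No CpG of the run was lower or higher. In the printed sequence from this run, 15 CpGs were tested and the means were 2.85%, 0.61%, 0.85% and 1.01% in the same order. CpG density went with this level: all 25 tested CpGs of the locus with 11 or more CpGs in the surrounding 100 bases were below 10% in shScr, as were all 14 at the Dlk1-Meg3-Rtl1 locus.

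A second little methylated stretch lay in an intron of *Igf2*, where 9 CpGs from position 149849820 to 149849900 were at 5.84% and 9.83% in shScr against 4.51% and 6.96% in shTet3 oxBS libraries. The groups overlapped there, and none of the 9 passed the test. The other CpGs of *Igf2* were partly or mostly methylated. Its 3 CpGs in the 3′ untranslated region were at 74.6% and 84.3% in shScr against 62.9% and 60.7% in shTet3, where 1 was lower in oxBS and all 3 were lower in BS. The 4 CpGs of the intermediate sequence printed above had means of 61.5% and 51.4% in shScr against 45.8% and 47.1% in shTet3 oxBS libraries. The BS libraries gave 63.6% and 54.7% against 44.9% and 48.7%. Both groups lay near the middle of the scale without overlap, and 1 of the 4 passed the test, in BS. At position 149851494, in an intron, the oxBS level was 68.5% and 58.6% in shScr against 36.4% and 40.0% in shTet3 (difference −27.4 points, q = 3.2e-03, 29 to 55 calls). It was not tested in BS, where it read 61.5% and 94.1% in shScr against 58.7% and 55.6% in shTet3. The 3 CpGs upstream of *Igf2* stayed near full methylation in all 4 oxBS libraries, at 94.5% and 98.8% in shScr against 94.2% and 91.4% in shTet3, and none passed the test.

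The 1 higher CpG of the 2 loci was also in *Igf2*, at position 149843313, and was singled out after its values were seen. Its oxBS level was 82.7% (76.2 to 87.8, 162 calls) in shScr replicate 1 and 29.4% (23.7 to 35.7, 218 calls) in shScr replicate 2, with 61.8% and 68.1% in shTet3. In BS libraries of the same numbers the levels were 88.1% and 27.2% in shScr against 59.2% and 52.0% in shTet3. The shScr replicates were thus far apart in both kinds of library and the shTet3 replicates lay between them. On pooled calls the oxBS difference was 11.98 points (q = 9.3e-03), and the BS difference of 3.38 points did not pass (q = 0.75).

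**Figure D3:**
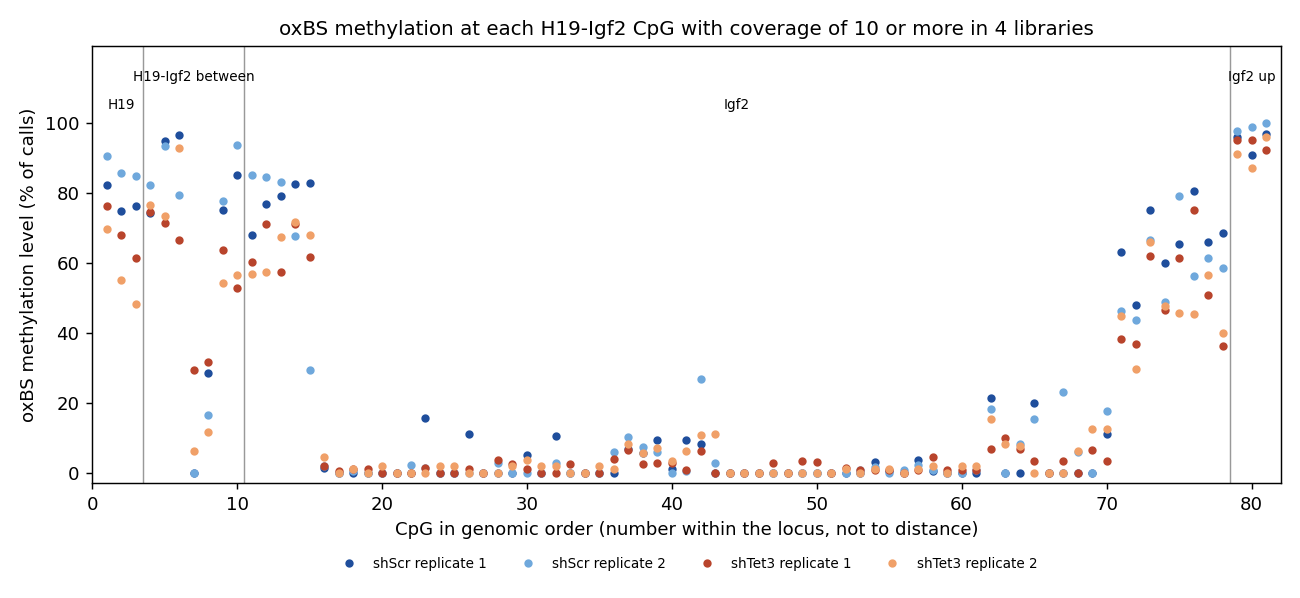
oxBS methylation level (% of calls, vertical axis) of the 81 tested CpGs of H19-Igf2 in genomic order (horizontal axis, not to distance), 1 colour per library, with grey lines between stretches ("between" is the intergenic stretch and "up" the upstream flank of *Igf2*). The long unmethylated run of *Igf2* lies near 0% in all 4 libraries and the 9 CpGs of its intron below 10% on average, while the CpGs of *H19* lie above 40%.

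At the other locus the stretch upstream of *Dlk1* showed the widest gap between control replicates. Its 23 CpGs averaged 70.04% and 38.7% in shScr against 38.5% and 45.8% in shTet3 oxBS libraries (exact permutation p = 0.67). The gap came from 18 CpGs between positions 110688161 and 110688736, which were at 64.0% in shScr replicate 1 and 23.0% in shScr replicate 2, and at 28.5% and 37.9% in shTet3. The BS libraries gave 63.2% and 28.8% against 36.3% and 31.4%. In both kinds of library shScr replicate 1 stood alone above the other 3. It exceeded replicate 2 by more than 20 points in BS and in oxBS at 15 of the 18 CpGs, and at 16 of the 165 CpGs of both loci covered in all 8 libraries, whereas replicate 2 exceeded replicate 1 in this way at 2. Over all CpGs covered in 8 libraries the order was the other way round, 0.681% with replicate 1 above and 5.65% with replicate 2 above. At position 110688289, chosen for this gap, shScr was at 79.0% and 15.4% in oxBS and 70.6% and 15.4% in BS, on 13 to 19 calls. Of the 18 CpGs, 3 were called lower in oxBS and 0 in BS, and without shScr oxBS replicate 1 the mean difference of the whole flank turned from −12.2 to 3.48 points. What distinguishes the 2 shScr replicates was not tested. The 5 CpGs further upstream were more methylated, at 91.6% and 95.4% in shScr against 74.6% and 74.5% in shTet3, with 2 lower and all 5 separated.

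**Figure D4:**
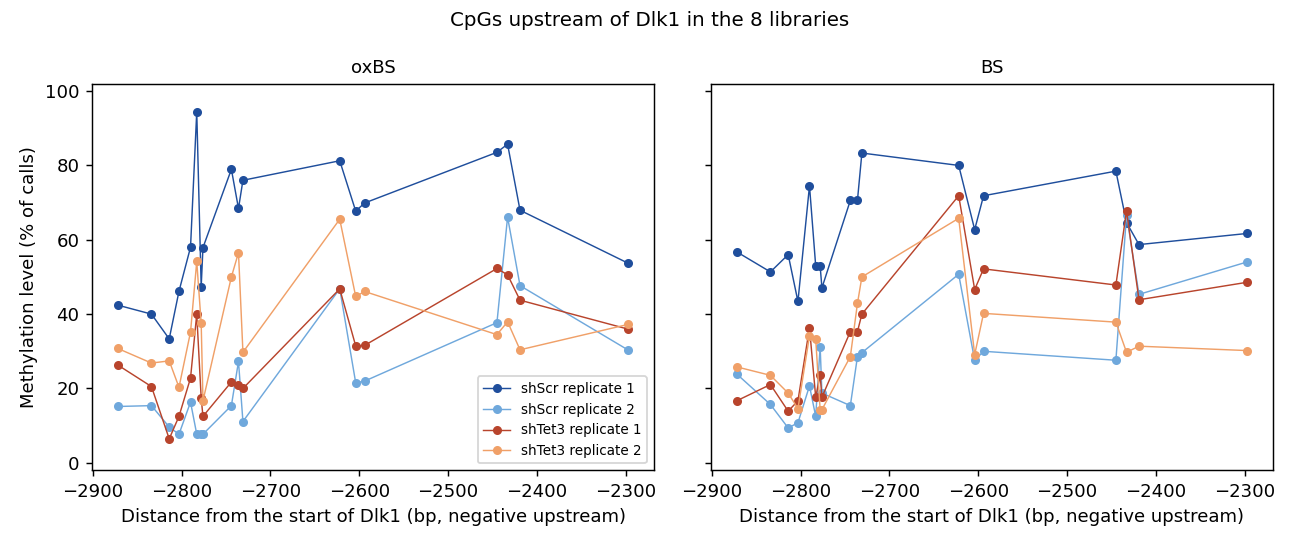
Methylation level (% of calls, vertical axis) of the 18 CpGs upstream of *Dlk1* by distance from its start (bp, negative upstream) in oxBS libraries (left) and BS libraries (right), 1 line per library. The dark blue line, shScr replicate 1, runs above the other 3 at nearly every CpG in both panels, at a mean of 64.0% in oxBS and 63.2% in BS.

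*Dlk1* itself had an unmethylated 5′ part and a methylated coding exon. In the 5′ part, 14 CpGs in and beside the 5′ untranslated region were at 1.61% and 4.58% in shScr against 5.04% and 5.93% in shTet3, and the 6 that follow in an intron were intermediate, at 35.2% and 46.4% in shScr against 42.5% and 38.3% in shTet3. None of these 20 passed the test. The 13 coding CpGs from position 110698054 were at 70.9% and 80.3% in shScr against 62.6% and 58.2% in shTet3, with 2 lower. Between *Dlk1* and *Meg3* the 17 tested CpGs averaged 64.9% and 85.5% in shScr against 58.4% and 57.8% in shTet3. There the shTet3 replicates were close to each other and the shScr replicates were far apart. All 17 pooled differences were negative and 3 passed. Over all CpGs tested 53.6% of differences were negative and 13.9% of CpGs were lower. Among those at 70 to 100% in shScr BS libraries these shares were 94.4% and 37.9%, so the shared sign does not set this stretch apart. The CpGs at positions 110735239 and 110734600 had the largest oxBS differences of the locus. The first was at 100.0% in both shScr replicates, on 15 and 10 calls, and at 43.5% and 52.6% in shTet3 (−52.4 points, q = 8.4e-06). The second was at 95.8% and 94.7% in shScr against 41.5% and 61.5% in shTet3 (−46.1 points, q = 2.0e-06). BS coverage was 6 and 8 in a shScr library at these CpGs, so neither was tested in BS. In BS libraries the first read 100.0% and 81.8% in shScr against 61.5% and 63.6% in shTet3. The second read 69.2% and 62.5% in shScr. There shTet3 BS replicate 1 was slightly above both shScr replicates, and shTet3 BS replicate 2, at 33.3% on 12 calls, was below both. The BS groups therefore overlapped at the second CpG, and its oxBS decrease was not seen in BS replicate 1.

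*Meg3* carried more lower CpGs than any other stretch of the loci, 13 of 25 in oxBS. At 22 of the 25 the shTet3 libraries were below the shScr libraries without overlap. Over all CpGs tested these shares were 13.9% and 26.3%, and among those at 70 to 100% in shScr BS libraries they were 37.9% and 63.5%. In BS libraries 6 of the 25 were lower, against 5 of 14 between *Dlk1* and *Meg3*. The oxBS mean of *Meg3* was 71.8% and 81.0% in shScr against 59.3% and 57.0% in shTet3. In the printed exon and intron sequence the 13 CpGs were at 79.7% and 92.3% in shScr against 67.8% and 63.6% in shTet3, with 9 lower and all 13 separated. In BS libraries these were 79.1% and 87.6% against 68.8% and 57.0%, with 6 lower. A further 8 exonic CpGs were at 74.97% and 80.3% in shScr against 58.8% and 57.9% in shTet3, 4 of them lower in oxBS and 0 in BS. The 4 CpGs in the first exon, within 100 bases of the *Meg3* start, were its least methylated run, at 39.9% and 45.6% in shScr against 32.5% and 33.6% in shTet3. None of the 4 passed. Their BS levels were 40.7% and 19.2% in shScr against 34.7% and 28.5% in shTet3. Thus shScr BS replicate 2 was the lowest of the 8 libraries and 26.4 points below the shScr oxBS library of the same number.

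**Figure D5:**
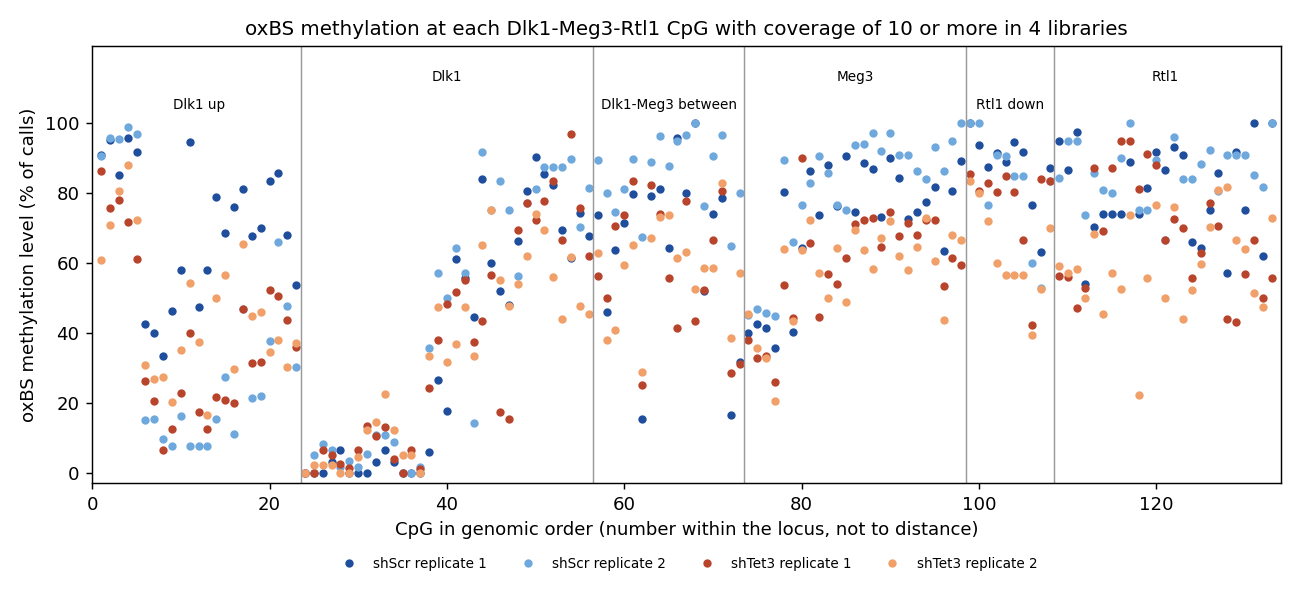
oxBS methylation level (% of calls, vertical axis) of the 133 tested CpGs of Dlk1-Meg3-Rtl1 in genomic order (horizontal axis, not to distance), 1 colour per library, with grey lines between stretches ("up" and "down" are flanks and "between" is the intergenic stretch). The 5′ part of *Dlk1* lies near 0%, and the *Dlk1* intron CpGs and the start of *Meg3* average near 40%. The 18 CpGs nearest upstream of *Dlk1* average 23.0% to 37.9% in every library but shScr replicate 1. Most other CpGs lie above 50%. At 65 of the 133 the shTet3 points lie below the shScr points.

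*Rtl1*, with its downstream flank, was highly methylated in control NPCs. The 10 CpGs of the flank averaged 87.4% and 82.4% in shScr against 77.1% and 62.7% in shTet3, with 4 lower. The 25 CpGs of the gene averaged 80.3% and 86.2% in shScr against 67.9% and 59.7% in shTet3, with 8 lower. In the coding sequence printed above, the 4 CpGs were at 83.1% and 86.8% in shScr against 53.0% and 56.1% in shTet3. The CpG at position 110828610 within it was at 97.3% and 94.7% in shScr against 47.1% and 58.3% in shTet3 (−44.7 points, q = 4.1e-07, 19 to 37 calls). It was not tested in BS, where it read 76.9% and 71.4% in shScr against 52.0% and 82.4% in shTet3. In BS shTet3 replicate 2 was thus above both shScr replicates. A second run of 6 CpGs was at 81.0% and 89.9% against 52.7% and 64.0%, with 3 lower. In oxBS libraries the means of the groups did not overlap in any of these. In BS libraries the flank overlapped, at 70.6% and 84.0% in shScr against 72.6% and 62.6% in shTet3 (exact permutation p = 0.67), with 4 lower. The 13 CpGs of the gene tested in BS did not overlap, at 78.1% and 86.1% in shScr against 64.5% and 61.8% in shTet3, with 3 lower.

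The coding sequence of *Rtl1* also holds the hairpins of *Mir431* and *Mir433* on the opposite strand, and listed CpGs fell in both. They are shown because the same CpGs belong to the microRNA and to the protein-coding gene. The genomic hairpins are forward-strand mm9 with listed CpGs in capitals, and the mature microRNAs are those of RefSeq (GRCm38.p6) with the seed, bases 2 to 8, in capitals.
Mir431 hairpin (chr12:110828657-110828747): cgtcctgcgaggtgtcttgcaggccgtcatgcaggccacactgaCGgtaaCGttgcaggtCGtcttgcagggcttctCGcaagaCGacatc
Mir433 hairpin (chr12:110829925-110830048): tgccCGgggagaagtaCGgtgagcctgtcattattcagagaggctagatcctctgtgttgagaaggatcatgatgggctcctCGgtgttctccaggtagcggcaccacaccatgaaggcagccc
mmu-miR-431-5p: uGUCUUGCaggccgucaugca
mmu-miR-431-3p: cAGGUCGUcuugcagggcuucu
mmu-miR-433-5p: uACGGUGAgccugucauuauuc
mmu-miR-433-3p: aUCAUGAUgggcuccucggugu
The 5 CpGs of *Mir431* were at 76.3% and 87.3% in shScr against 86.7% and 59.4% in shTet3 oxBS libraries, on 19 to 39 calls. One shTet3 replicate lay between the shScr replicates and the other below both. The 3 CpGs of *Mir433* were at 75.0% and 87.1% in shScr against 70.2% and 70.3% in shTet3, and at 79.2% and 73.8% against 59.9% and 63.8% in BS. No CpG of either hairpin was lower in oxBS, and none of *Mir433* was lower in BS. The CpGs of *Mir431* were not tested in BS, where coverage went down to 7.

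The BS libraries, read against each other, gave the same direction at the 2 loci. Of 172 CpGs tested, 28 were lower in shTet3, or 16.3%, against 13.8% of all CpGs, and 0 were higher, against 0.0621%. Of these, 7 of 64 were in H19-Igf2 and 21 of 108 in Dlk1-Meg3-Rtl1. The locus means were 26.3% and 26.7% in shScr against 22.6% and 22.5% in shTet3 for H19-Igf2, and 63.5% and 64.0% against 51.7% and 48.8% for Dlk1-Meg3-Rtl1. The shTet3 libraries were below the shScr libraries without overlap at 68 CpGs, or 39.5%, against 26.1% of all CpGs. Among CpGs at 70 to 100% in shScr oxBS libraries 26 of 79 were lower, or 32.9%, against 38.8% of all, and among those at 30 to 70% 2 of 29, or 6.9%, against 32.6%. Of the 165 CpGs tested in both kinds of library, 35 were lower in oxBS and 28 in BS. The 13 called in both were 37.1% of the first and 46.4% of the second, and all 50 called in either had negative differences in both. These shares were not counted over all CpGs. Of all CpGs at 70 to 100% in shScr libraries of the other kind, 94.4% had negative differences in oxBS and 94.8% in BS. A shared sign therefore does not set these loci apart.

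Within each shRNA, BS minus oxBS estimates 5hmC. In shScr 1 of 179 CpGs had BS above oxBS and 0 had it below, against 0.33% and 0.17% of all CpGs. In shTet3 none of 205 passed in either direction, against 0.0239% and 0.0141%. The overdispersion F test, for which the adjusted threshold was practically out of reach, called 0 in both. At an unadjusted p under 0.05 it also had 0. The 1 CpG, named because the count is so low, lies between *Dlk1* and *Meg3* at position 110711031, at 46.0% in oxBS and 68.2% in BS for replicate 1 and at 80.0% and 83.9% for replicate 2. With the replicate as a block, which shared DNA would call for, it was no longer called. The mean difference over Dlk1-Meg3-Rtl1 was −0.326 points in shScr and 0.102 points in shTet3 (exact permutation p = 1 for both). Over H19-Igf2 it was 0.952 and −1.06 points (exact permutation p = 0.67 and 1). With 2 libraries against 2 this test cannot pass, so it neither shows nor bounds 5hmC over a stretch. In both replicates BS exceeded oxBS in the stretch between *H19* and *Igf2*, by 12.2 and 8.25 points over 5 CpGs in shScr and by 3.46 and 5.70 points over 4 CpGs in shTet3 (exact permutation p = 0.33 and 0.67). In shTet3 it also did so at 3 CpGs between *Dlk1* and *Meg3* from position 110763922, by 13.7 and 9.58 points. Both were picked out after their values were seen, and no CpG of either was called for BS against oxBS. In the first, the pair near position 149797431 gave 28.1 and 6.67 points in shScr, and the other 3 CpGs 1.62 and 9.30. Such differences were not confined to these stretches. Over 8 exonic CpGs of *Meg3* they were 2.04 and 5.60 points in shScr and 5.96 and 6.63 in shTet3. In shScr both replicates were negative over *H19* (−0.436 and −1.67) and *Rtl1* (−2.47 and −0.952).

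Genes around the loci and genes of related pathways were counted in the same way in oxBS libraries, with 5 kb on either side. Of 15 neighbours on chromosome 7, 14 had tested CpGs, and 55 of 405 were lower, or 13.6%. Most of these were in *Kcnq1*, a potassium channel gene that hosts another imprinted domain, with 37 of 117, and the next were *Th*, which encodes tyrosine hydroxylase, with 6 and the non-coding *Nctc1* with 4. On chromosome 12, 55 of 633 CpGs of 10 neighbours were lower, or 8.69%, led by *Begain* with 19 and by *Slc25a29* and *Ppp2r5c* with 8 each. *Rasgrf1*, another locus with paternal germline methylation, had 2 of 28, or 7.14%. Its tested CpGs averaged 17.0% and 21.0% in shScr, and whether they reach its germline control region was not checked. Of the insulin-like growth factor pathway 86 of 1176 CpGs were lower, or 7.31%, and 1 was higher, in *Igfbp2*. The receptor gene *Igf1r* had 19 and the binding protein gene *Igfbp5* 11, before *Igf2bp2*, *Igfbp2* and *Irs2* with 10 each. Of the Notch pathway genes related to *Dlk1*, 131 of 1321 were lower, or 9.92%, and 1 was higher, in *Jag2*, the Notch ligand gene that also had the most lower CpGs, 38, before the receptor gene *Notch3* with 22 and the ligand gene *Dll4* with 16. Of 13 genes for imprint maintenance and methylation, 75 of 728 were lower, or 10.3%, with *Tet3* at 14, *Ctcfl*, a relative of CTCF, at 13 and the maintenance methyltransferase gene *Dnmt1* at 10. The median difference was −3.54 points for the chromosome 7 neighbours, −0.272 for those of chromosome 12 and 0 for the 3 pathway lists, and all lists lay at or below the 13.9% of all CpGs.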

How the data were processed

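The oxRRBS data of NPCs, 8 libraries, were used as deposited. According to the methods and the submitters' processing notes, the authors trimmed reads with Trim Galore, aligned them to mm9 with Bismark and used methylKit. Tool versions are not given in the sources used here. The deposited columns are the coverage of each CpG, as a count, and what percent of it was C or T, neither normalised. Methylated calls were recovered as percent times coverage. The lowest coverage of a listed CpG was 5 in every library. Reads were amplified without molecular identifiers, so intervals and tests cover counting error only.

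Python 3.11.15, numpy 2.4.6, scipy 1.17.1 and pandas 2.3.3 were used. The test, its thresholds and the minimum coverage of 10 are given with the results, and means over stretches are unweighted. Adjustment was over all CpGs tested. The test was checked on simulated counts drawn without spread between replicates, so the check does not bear on such spread. The CpGs named are the 3 of each locus and direction with the largest called oxBS difference and separated replicates, plus those said to be chosen after their values were seen. From each gene list the 3 genes with most lower CpGs were named. Members, lists and tests were chosen with earlier results of these data known. BS and oxBS libraries of the same number were taken to come from the same DNA, which the sample titles do not state. Their deviations correlated at 0.509 in shScr and 0.246 in shTet3, whereas shScr and shTet3 libraries share only a number (−0.0361). Alternatives were other coverage minimums, read-weighted levels, Fisher's exact test, an F test, a replicate block, separated replicates and leaving out each library or, after seeing the data, the run upstream of *Dlk1*.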

Additional observations from a re-analysis of the deposited data

Results flagged for a closer look

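The BS minus oxBS difference pointed one way in both shScr replicates and the other way in both shTet3 replicates in 2 stretches. This difference between the shRNAs was not tested, and the CpGs covered in the shScr and in the shTet3 libraries were not all the same. Over *Igf2* it was 0.107 and 0.512 percentage points in shScr (61 CpGs) and −2.23 and −1.05 points in shTet3 (65 CpGs). Over *Rtl1* it was −2.47 and −0.952 points in shScr (13 CpGs) and 0.458 and 3.40 points in shTet3 (25 CpGs).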

How the results depend on the processing

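Counts of lower CpGs at both loci stayed within 1.5 times the reported value under coverage minimums of 5 and 20, Fisher's exact test, separated replicates and the replicate block (8 and 36 in oxBS, 7 and 24 in BS for H19-Igf2 and Dlk1-Meg3-Rtl1). The F test, for which the adjusted threshold was practically out of reach, gave 0. Each refit without a library counts calls afresh, and which CpGs were shared was not counted. Leaving out each library gave 5 to 8 lower CpGs at H19-Igf2, against 8, with 5 without shScr oxBS replicate 2 or without either shTet3 oxBS replicate. It gave 19 to 30 at Dlk1-Meg3-Rtl1, against 35, with 19 without shTet3 oxBS replicate 2. In BS the ranges were 4 to 8 (4 without shScr BS replicate 2) and 10 to 28 (10 without shTet3 BS replicate 2). The 1 higher CpG was 0 at a coverage of 5, by Fisher's exact test, the F test, the replicate block, separated replicates, and without shScr oxBS replicate 2 or shTet3 oxBS replicate 1. Leaving out a library gave 0 or 1 higher CpG in oxBS and 0 to 2 in BS, with 2 without shScr BS replicate 1. For BS above oxBS in shScr, the F test, the replicate block and separated replicates gave 0, and leaving out each library 2 to 4. For BS below oxBS it gave 0 to 4, with 0 only without shScr oxBS replicate 1. In shTet3 all settings gave 0.

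The mean difference of H19-Igf2 was −3.40, −5.92 and −4.34 points in oxBS, and −5.65, −3.48 and −4.65 points in BS, at coverage 5, at coverage 20 and weighted by reads. Leaving out each library gave −5.69 to −3.63 and −6.37 to −3.70 points. The replicate block, as pairs 1 and 2, gave −3.67 and −4.23 points in BS there, and −11.9 and −15.7 in oxBS and −11.8 and −15.2 in BS for Dlk1-Meg3-Rtl1, where read weighting gave −11.4 in BS. The sign turned in 3 flanks. Upstream of *Dlk1* oxBS pair 2 gave 7.13 points and leaving out each library −27.8 to 3.48. Upstream of *Igf2* BS pair 2 gave 3.801 and leaving out each library −4.85 to 1.02. Downstream of *Rtl1* BS pair 1 gave 2.00. Other stretch means moved by over 1.5 times. Over *Dlk1* the oxBS difference of −5.03 points was −2.89 at coverage 20, −11.2 weighted by reads, and −8.53 and −1.53 without shScr oxBS replicates 1 and 2, and in BS read weighting took −7.82 to −2.77. Between *Dlk1* and *Meg3* the oxBS difference of −17.1 was −27.3 and −6.81 without those replicates. In BS, read weighting took −12.7 to −7.11 upstream of *Dlk1*, and coverage 5 took −3.03 to −5.01 over *Igf2* and −18.9 to −12.2 over *Rtl1*. Without the run upstream of *Dlk1*, 32 CpGs were lower in oxBS and 21 in BS. The causes were not tested.

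Coverage limits what can be said of the germline control regions and of the intergenic runs, where many CpGs had fewer than 10 calls. With 2 replicates a group, no mean difference can pass an exact test, and the same-numbered shScr and shTet3 libraries share only a number.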
